A study of Homo sapiens with 9 samples.

Results

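Glycolysis splits glucose into pyruvate in the cytosol, and lactate dehydrogenase then reduces pyruvate to lactate while restoring the NAD+ that the pathway consumes. The first steps spend ATP to trap and phosphorylate the sugar, and the later steps return ATP from each triose. Proliferating epithelial cells in culture carry high flux through this pathway, and the genes of its enzymes are textbook targets of hypoxia-inducible factor and MYC. The mRNAs of 10 of these enzymes were followed here: the hexokinases HK1 and HK2, phosphofructokinase PFKP, aldolase ALDOA, triose-phosphate isomerase TPI1, glyceraldehyde-3-phosphate dehydrogenase GAPDH, phosphoglycerate kinase PGK1, enolase ENO1, pyruvate kinase PKM and lactate dehydrogenase LDHA. They are a list of gene symbols, and the rule used no measured value. All 10 were found among the 25801 genes of the deposited table.

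The cells were MCF10A, an immortalised, non-transformed human mammary epithelial line. In all groups the endogenous JUN gene had been knocked out, and JUN had been returned as JUN-AID, a fusion to an auxin-inducible degron, together with the auxin receptor TIR1. JUN is a subunit of the transcription factor AP-1. The DMSO group received DMSO for 1 h and then 100 µM 4-thiouridine (4sU) for 1 h, the IAA group received 100 µM indole-3-acetic acid (IAA), which triggers degradation of the fusion protein, for 1 h and then the same 4sU pulse, and the control group received no 4sU. The solvent or IAA treatment of the no 4sU control is not given in the labels. Newly made RNA carries 4sU, which is read as C in place of T after alkylation, so that the T>C conversion rate of an mRNA rises with the share of its molecules made during the pulse, while the depth-scaled read number (CPM) follows the total pool. Each group was labelled as 3 replicates, which the study describes as biological replicates. The columns of the 3 IAA replicates held identical values in all 56868 rows and were counted as 1 library, so that no test of IAA against DMSO was possible.

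Depth was even, with 18997637 to 24014195 reads per library. The median conversion rate over 10303 genes was 0.0530 to 0.0547% without 4sU, 0.263% in DMSO replicate 1, 0.196% and 0.197% in DMSO replicates 2 and 3, and 0.242% with IAA. DMSO replicate 1 thus had the highest labelling, and the median labelling of the IAA library was the next highest. Of 11 basal mammary epithelial markers, 11 had a mean of at least 1 CPM, and their sum was 4474 to 5822 CPM per library. Of the luminal markers 3 of 6 (KRT8, KRT18 and GATA3) reached 1 CPM, with sums of 107 to 149 CPM, and of the fibroblast markers 2 of 6 (COL1A1 and DCN), with sums of 9.05 to 14.5 CPM and COL1A2 at 0. The endothelial list (0 of 4, sums up to 1.36 CPM, CDH5 and VWF at 0), the leukocyte list (1 of 5, CD68, sums of 1.68 to 7.93 CPM, PTPRC, CD3E and MS4A1 at 0) and the adipocyte list (0 of 3, sums up to 0.247 CPM, ADIPOQ at 0) were near 0. JUN mRNA stood at 48.1, 57.6 and 45.0 CPM without 4sU, at 30.2, 20.3 and 25.6 CPM with DMSO and at 62.9 CPM with IAA. The degron removes JUN protein, so its mRNA does not test the depletion.

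The table listed 35 transcript rows for the 10 enzymes, which reduced to 13 distinct 3′ intervals. One interval remained for every enzyme but LDHA, which had 4 nested intervals of 845, 940, 1089 and 1102 bases that shared nearly all reads. On the GRCh37 assembly, the intervals of TPI1 (chr12:6979545-6980110), ENO1 (chr1:8921059-8921421), PKM (chr15:72491370-72491993) and LDHA (chr11:18428677-18429765, the 1089-base interval, used for the CPM printed below) were equal in length to an annotated 3′ end of the gene from the stop codon on. Log2 differences and tests of the LDHA level used the sum of its 4 intervals, in which shared reads count more than once. The TPI1 interval overlapped the annotated neighbour SPSB2 in its coordinates, with the strand not considered. Several enzymes have pseudogenes in the annotation, 65 named after GAPDH, 6 after LDHA, 5 after PKM, 4 each after TPI1 and ENO1, 2 each after ALDOA and PGK1, and 1 after HK2. How reads that fit several places were assigned is not given in the sources used here. The levels of these genes, and of GAPDH above all, are uncertain to that extent.

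The first comparison asked which enzyme mRNAs gained label within the 1-h pulse. With DMSO and 4sU, 6 of the 10 enzymes had a higher conversion rate than without 4sU, namely HK1, ALDOA, GAPDH, ENO1, PKM and LDHA. PFKP, TPI1, PGK1 and HK2 did not pass the test. With the replicate number as a block, 4 of the 10 were called, and ENO1 (limma adjusted p = 0.0696) and LDHA (limma adjusted p = 0.0609) were not. The enzymes spanned a wide range, from a 4.39-fold ratio of the group means for HK1 to a 1.59-fold ratio for PGK1 (3.02-fold and 1.59-fold without replicate 1), and the enzymes of neighbouring steps often differed. Across all 10550 genes tested, 48.8% were higher with 4sU and 0.0853% were lower (limma on log2 of the rate plus 0.0005, Benjamini-Hochberg adjusted p under 0.05), so that the 6 enzymes called stand near the share of all genes. Under the block, 38.7% of genes were higher and 0.0853% lower. Log2 differences below are on that scale and understate the change of low rates.

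**Figure D1:**
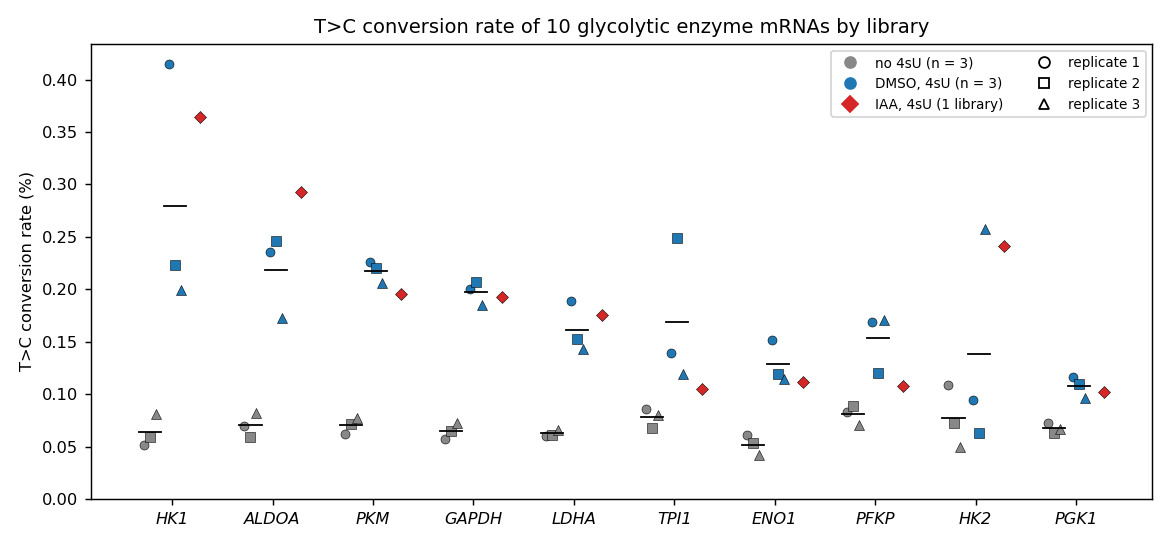
T>C conversion rate in percent of each enzyme mRNA in the 3 no 4sU libraries, the 3 DMSO libraries with 4sU and the 1 IAA library with 4sU; points are libraries, symbols give the replicate number, bars are group means, and enzymes are ordered by the DMSO mean less the no 4sU mean. HK1 reached 0.415% in DMSO replicate 1, PGK1 stayed between 0.0965 and 0.116% in the DMSO group, and the groups overlapped for HK2 alone.

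HK1, the broadly expressed hexokinase that phosphorylates glucose, had rates of 0.0511, 0.0588 and 0.0811% without 4sU and of 0.415, 0.224 and 0.200% with DMSO and 4sU. The labelled libraries all lay above the unlabelled ones, with replicate 1 far above the other two. The log2 difference was 1.49 (SE 0.33, limma adjusted p = 0.0146), and 1.13 without replicate 1 (limma adjusted p = 0.0657). HK2, the inducible and growth-associated hexokinase, had rates of 0.109, 0.0725 and 0.0494% without 4sU and of 0.0940, 0.0630 and 0.257% with it. Its groups overlapped and only DMSO replicate 3 stood clear (log2 difference 0.46, SE 0.43, limma adjusted p = 0.393), with 228 to 575 reads per library behind each value, the fewest of the 10 enzymes. Without replicate 3 the HK2 difference was -0.13. PFKP, the platelet-type phosphofructokinase that commits sugar to glycolysis, had rates of 0.0831, 0.0882 and 0.0709% without 4sU and of 0.169, 0.120 and 0.171% with it. The groups did not overlap, and the difference of 0.63 (SE 0.24) missed the threshold (limma adjusted p = 0.0689). It passed when only genes with at least 200 reads were tested (adjusted p = 0.0478).

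ALDOA, which cleaves fructose-1,6-bisphosphate into 2 trioses, had rates of 0.0700, 0.0587 and 0.0820% without 4sU and of 0.235, 0.246 and 0.173% with it. Every labelled library exceeded every unlabelled one, and the log2 difference was 1.15 (SE 0.25, limma adjusted p = 0.0137). TPI1, which interconverts these trioses, had rates of 0.0858, 0.0681 and 0.0800% without 4sU against 0.139, 0.249 and 0.119% with it. Replicate 2 was high and the other two were close to each other, and the difference of 0.73 (SE 0.30) did not pass (limma adjusted p = 0.0826).

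Among the enzymes of the energy-yielding steps, GAPDH and PKM had higher rates than PGK1 and ENO1 in every labelled library. GAPDH, which makes 1,3-bisphosphoglycerate and NADH, had rates of 0.0569, 0.0646 and 0.0725% without 4sU and of 0.200, 0.207 and 0.185% with it, a log2 difference of 1.11 (SE 0.22, limma adjusted p = 0.0102). PKM, which forms pyruvate and ATP, had rates of 0.0618, 0.0715 and 0.0776% without 4sU and of 0.226, 0.221 and 0.206% with it, a difference of 1.15 (SE 0.23, limma adjusted p = 0.00981). Both were tight within the groups, and the gap between the groups was far wider than either spread. ENO1, which forms phosphoenolpyruvate, moved from 0.0606, 0.0530 and 0.0420% to 0.152, 0.119 and 0.114% (log2 difference 0.81, SE 0.23, limma adjusted p = 0.0289, and 0.0696 with the block). PGK1, which transfers the first phosphate to ADP, had rates of 0.0726, 0.0629 and 0.0665% without 4sU and of 0.116, 0.109 and 0.0965% with it. The PGK1 groups did not overlap, but the difference was small, at 0.42 (SE 0.21), and did not pass (limma adjusted p = 0.137). LDHA, the final enzyme of lactate formation, had rates of 0.0600, 0.0614 and 0.0660% without 4sU and of 0.189, 0.152 and 0.143% with it, clear of each other, with a log2 difference of 0.90 (SE 0.22, limma adjusted p = 0.0186, and 0.0609 with the block).

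For 9 of the 10 enzymes, all but HK2, the lowest labelled rate exceeded the highest unlabelled rate, against 63.0% of all genes tested. The set behind this share, and behind the 48.8% called, includes genes with few reads. A share for genes as deeply read as the enzymes is not given here. The median log2 difference over the enzymes was 0.86, against 1.27 over all genes. With 1 replicate number left out, 0 of the 6 enzymes passed (limma adjusted p = 0.0556 to 0.120). Over all genes, the number called fell from 5158 to between 2156 and 2705 in the same fits, which hold fewer samples. Of the 10 enzymes, 5 or 6 still had an unadjusted limma p under 0.05, for which the share of all genes is not given here. The 6 calls thus needed all 3 replicates, as did many calls of other genes.

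Background-subtracted rates (the DMSO mean less the no 4sU mean) placed most enzymes below the typical gene. Among the 7185 genes with at least 200 reads on average, whose median was 0.140%, the enzymes had a median of 0.0950%, at percentile 34.2, and 7 of 10 were below the median of the genes. HK1 led at 0.216% (percentile 67.3; 0.142% without replicate 1, close to the 0.139% of ALDOA and of PKM), followed by ALDOA at 0.148% (52.4), PKM at 0.147% (52.2), GAPDH at 0.133% (47.7) and LDHA at 0.0990% (35.9). TPI1 at 0.0909% (32.5), ENO1 at 0.0766% (26.9), PFKP at 0.0726% (24.8), HK2 at 0.0613% (19.9) and PGK1 at 0.0400% (11.5) made up the lower part. The conversion rate depends on RNA made during the pulse relative to the whole pool, so a low rate is no measure of low expression.

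No enzyme in this order was separated from the next by the range of its DMSO libraries. Some pairs nevertheless kept their order: GAPDH exceeded LDHA, LDHA exceeded ENO1 and ENO1 exceeded PGK1 in 4 of 4 labelled libraries, the IAA library included. The order was itself taken from the mean of the 3 DMSO libraries, so only the IAA library did not enter it. The pairs named are a selection of all pairs. HK1 lay above PGK1 in 4 of 4 and above HK2 in 3 of 4. HK2 moved most, from percentile 6.50 in DMSO replicate 2 to 67.1 in replicate 3, and TPI1 from 20.0 in replicate 1 to 63.7 in replicate 2, whereas LDHA kept between 38.8 and 43.0 in the 3 DMSO libraries. The median percentile of the enzymes rose to 45.6 both without replicate 1 and among genes with at least 1000 reads.

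**Figure D2:**
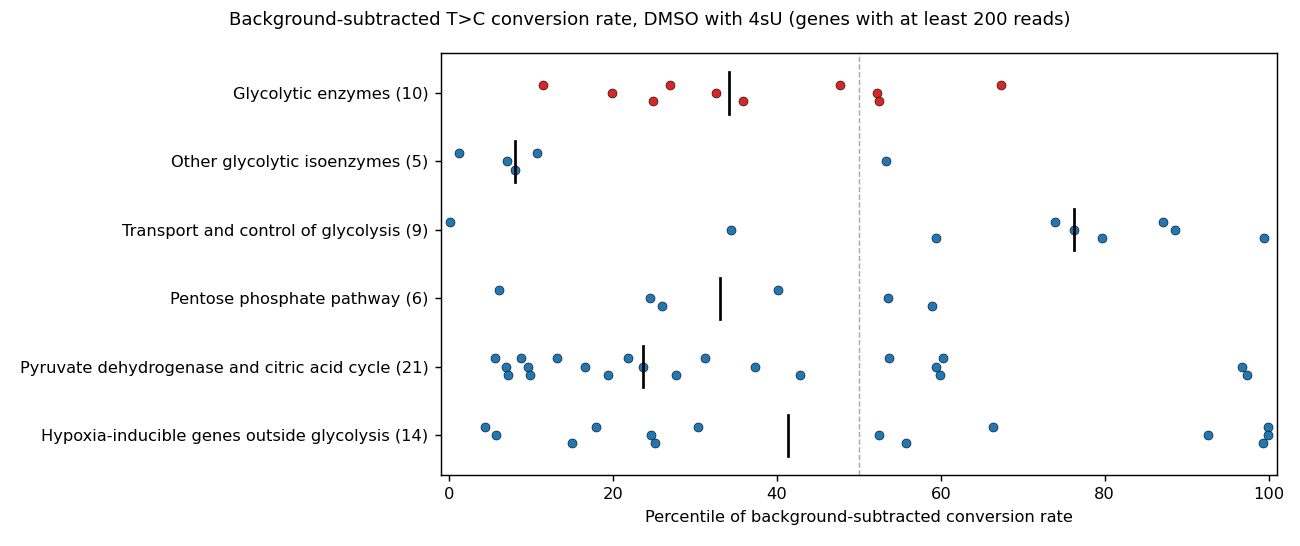
Percentile of the background-subtracted T>C conversion rate (DMSO libraries with 4sU, mean of 3) among genes with at least 200 reads, for the 10 glycolytic enzymes in red and for related gene lists in blue; each point is a gene, the vertical offset only separates points, and black bars are list medians. The enzymes had a median percentile of 34.2, the genes of transport and control 76.2.

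Related genes were counted in the same test. Of 13 measured genes of glucose and lactate transport and of the control of glycolysis, 10 had a higher rate with 4sU, with a median log2 difference of 1.83 and a median percentile of 76.2 (9 genes with enough reads). Over all genes that share was 48.8%. The called genes were the glucose transporter SLC2A1 (1.90, SE 0.38), the monocarboxylate transporters SLC16A1 (0.74, SE 0.23) and SLC16A3 (1.73, SE 0.35), the fructose-2,6-bisphosphate regulators PFKFB3 (1.89, SE 0.35) and TIGAR (1.42, SE 0.28), and the pyruvate dehydrogenase phosphatases PDP1 (1.83, SE 0.33) and PDP2 (2.09, SE 0.47). They also included the pyruvate dehydrogenase kinase PDK4 (4.42, SE 0.26; 65 to 207 reads per library) and the arrestin-domain proteins TXNIP (5.17, SE 0.34) and ARRDC4 (5.50, SE 0.41; 47 to 67 reads), which restrain glucose uptake. Of these 10, SLC16A1 was not called with the block (limma adjusted p = 0.109). SLC16A1 and TIGAR had smaller log2 differences than the 1.49 of HK1, the highest of the enzymes, and the difference between lists was not tested. Of 8 other glycolytic isoenzymes, 2 were called, the phosphoglycerate mutases PGAM1 (3.66, SE 0.74; 31 to 90 reads per library) and PGAM4 (8.05, SE 0.41; 0 to 6 reads). A gene entered the test with a rate above 0 in at least 3 libraries, which the DMSO libraries alone can supply. With so few reads, the size of the PGAM4 difference depends on the added 0.0005, and its call is not read as a result. LDHB, the heart-type partner of LDHA, had a difference of 0.35 (SE 0.27), and the isomerase GPI one of 0.44 (SE 0.25), neither of which passed.

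Against the same 48.8% of all genes, 2 of 7 genes of the pentose phosphate pathway passed, PGD (1.33, SE 0.31) and RPE (0.91, SE 0.23; limma adjusted p = 0.0698 with the block), and the median percentile of the 6 with enough reads was 33.1, near that of the enzymes. In the pyruvate dehydrogenase complex and citric acid cycle, 6 of 21 passed, with a median percentile of 23.7. These were MDH2 (4.02, SE 0.35), DLST (3.93, SE 0.61; 106 to 530 reads per library), IDH3B (1.61, SE 0.36), FH (1.39, SE 0.33), PDHB (1.33, SE 0.39) and DLD (0.94, SE 0.24). The DLST rate varied widely, with a mean of 1.23% (SD 1.06%) in the DMSO libraries and 0.154% in the labelled IAA library. PDHB and DLD were not called with the block (limma adjusted p = 0.0777 and 0.0523). Of 16 hypoxia-inducible genes outside glycolysis, 7 passed, led by DDIT4 (6.26, SE 0.39), ADM (5.09, SE 0.38) and BHLHE40 (5.07, SE 0.36), and with VEGFA (2.73, SE 0.32), EGLN1 (1.52, SE 0.30), ANKRD37 (1.46, SE 0.48; limma adjusted p = 0.0517 with the block) and NDRG1 (1.43, SE 0.32). None of these lists had a member with a rate called lower.

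The total mRNA of the 10 enzymes was compared over the same 6 libraries, which asks whether the 4sU pulse changed the pool. No enzyme was called by limma on log2(CPM + 1) after trimmed-mean (TMM) scaling, and none had an unadjusted p under 0.05 in this fit without the replicate block. Of all 11144 genes tested, 0% were higher and 1.60% were lower with 4sU, and 1132 had an unadjusted p under 0.05. edgeR and DESeq2, run on the reads recovered from the CPM, also called 0 of the 10. The median log2 difference over the enzymes was 0.11, against 0.04 over all genes. In bulk libraries, fewer cells of a type and less RNA per cell cannot be told apart.

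**Figure D3:**
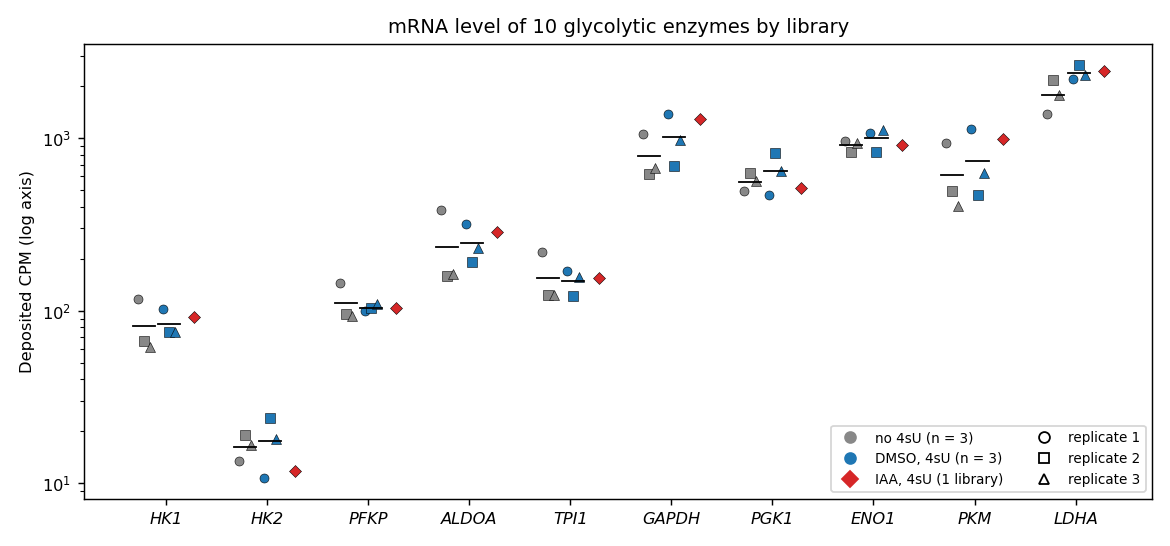
Deposited CPM of each enzyme mRNA on a log axis in the 3 no 4sU libraries, the 3 DMSO libraries with 4sU and the 1 IAA library; points are libraries, symbols give the replicate number and bars are group means. In both groups replicate 1 was highest for HK1, ALDOA, TPI1, GAPDH and PKM and lowest for HK2, PGK1 and LDHA.

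LDHA had 1370, 2161 and 1767 CPM without 4sU and 2192, 2656 and 2306 CPM with DMSO and 4sU. It was the 1 enzyme whose deposited CPM did not overlap between the groups, a pattern that 10.4% of all genes shared, with 8.89% separated in the opposite direction. After TMM scaling its groups overlapped, as did those of the other enzymes, while 7.70% of all genes were separated upwards and 10.3% downwards. Its log2 difference was 0.42 (SE 0.23, limma adjusted p = 0.599) for the sum of its intervals, and 0.41 (limma adjusted p = 0.598) for the interval with most reads. GAPDH had 1056, 618 and 668 CPM without 4sU and 1375, 689 and 973 CPM with it, overlapping groups with replicate 1 on top of each (log2 difference 0.32, SE 0.27, limma adjusted p = 0.755). LDHA and GAPDH were the enzymes whose level was higher with 4sU in 3 of 3 replicate numbers. With the replicate number as a block their unadjusted p values fell to 0.0227 and 0.0388 in limma, and after adjustment over all genes they remained at 0.266 and 0.306. No enzyme was called under the block, where 1.66% of all genes were lower and 0% higher.

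The other 8 enzymes differed by -0.10 to 0.23 on the log2 scale. PKM had 940, 495 and 403 CPM without 4sU and 1120, 469 and 625 CPM with it. ALDOA had 383, 158 and 163 CPM against 318, 191 and 231 CPM. In both, replicate 1 exceeded its own group by more than the groups differed.

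ENO1 had 957, 827 and 938 CPM without 4sU and 1070, 824 and 1108 CPM with it. PGK1 had 490, 623 and 565 CPM against 468, 814 and 647 CPM. TPI1 had 220, 123 and 123 CPM against 169, 121 and 157 CPM. In PGK1 the first replicate was the lowest of each group, in TPI1 the highest.

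HK1 stood at 117, 66.6 and 61.6 CPM without 4sU and at 102, 74.96 and 75.5 CPM with it. PFKP stood at 145, 95.5 and 92.9 CPM against 99.6, 103 and 109 CPM. HK2 had the fewest reads, at 13.4, 18.9 and 16.6 CPM against 10.7, 23.9 and 18.0 CPM. HK1 and HK2, which catalyse the same reaction, thus took opposite positions in replicate 1. Summed over the 10 enzymes, the level was 5692, 5186 and 4799 CPM without 4sU, 6924, 5966 and 6250 CPM with DMSO and 6811 CPM with IAA. LDHA held the largest part of this sum. Every labelled library was above every unlabelled one on this scale. As a share of the reads in the most-read interval of each gene, however, the groups overlapped, at 1.201, 1.12 and 1.09% without 4sU, 1.35, 1.16 and 1.25% with DMSO and 1.26% with IAA.

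In the related lists, total mRNA was called for 3 of 16 hypoxia-inducible genes, all lower with 4sU, against 1.60% of all genes lower and 0% higher: DDIT4 (-2.72, SE 0.18), ADM (-1.82, SE 0.20) and BHLHE40 (-1.58, SE 0.23). No member of the isoenzyme, transport and control, pentose phosphate or citric acid cycle lists was called. TXNIP had the most negative value of those lists, at -0.998 (SE 0.225, limma adjusted p = 0.0752), and SUCLG2 the most positive, at 0.54 (SE 0.33, limma adjusted p = 0.650).

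For HK1, HK2, ALDOA, TPI1, GAPDH, PGK1 and PKM, replicate 1 differed from replicates 2 and 3 in both groups by more than the groups differed from each other. Replicate 1 was highest in both groups for 5 enzymes, HK1, ALDOA, TPI1, GAPDH and PKM, and lowest in both for 3, HK2, PGK1 and LDHA. Of all 11144 genes, 23.8% showed the first pattern and 23.5% the second. Against the mean of replicates 2 and 3, replicate 1 was higher by 0.96 log2 units without 4sU and by 1.04 with it for PKM, by 1.14 and 0.59 for ALDOA, and by 0.60 and 0.74 for GAPDH. The same differences were -0.48 and -0.90 for HK2, -0.39 and -0.64 for PGK1, and -0.63 and -0.18 for LDHA. Over all genes the median size of this difference was 0.32 without 4sU and 0.25 with it. For ENO1 the differences were 0.01 and 0.15, and for PFKP they had opposite signs, at 0.50 and -0.10.

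**Figure D4:**
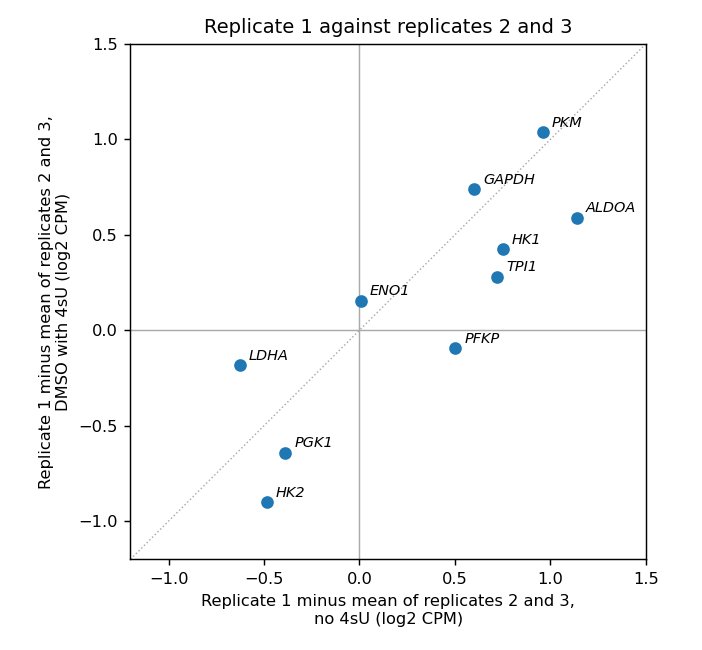
Log2 CPM of replicate 1 minus the mean of replicates 2 and 3, in the no 4sU group on the horizontal axis and in the DMSO group with 4sU on the vertical axis, 1 point per enzyme; the dotted line marks equal values. PKM, ALDOA, GAPDH, HK1 and TPI1 lie in the upper right, HK2, PGK1 and LDHA in the lower left.

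Deviations from the group means in same-numbered libraries correlated over the 10 enzymes with Pearson's r of 0.840, 0.828 and 0.683 for numbers 1, 2 and 3, and over all genes with 0.393, 0.313 and 0.366. These are correlations across genes, which are not independent replicates, and within a group the deviations sum to 0. The set of all genes reaches down to a mean of 1 CPM, and no set matched to the enzymes in level was compared. For conversion rates the same correlations over 10550 genes were 0.00772, -0.00396 and -0.0281. What the replicate numbers share is not given in the labels, and its part in the levels was not tested.

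The promoters of the enzymes at both ends of this pattern are shown so that the sequence can be read beside the levels. RefSeq promoter windows on GRCh38.p14, which run from 250 bases before to 50 after a start site, were matched for all 10 enzymes (24 windows). ACGTG, the core that hypoxia-inducible factors and MYC-type factors can bind, was searched on both strands, and CACGTG, which holds ACGTG on each strand, was counted as well. ACGTG stood in 10 of the 24 windows and in 21.4% of all 35116 windows. These 10 windows belonged to 7 enzymes, and the share of all genes with the motif in any window is not given here. Windows of a gene can overlap, and a gene with more windows has more chances of a match. CACGTG stood in 4 windows of 4 enzymes (ALDOA, GAPDH, HK2 and LDHA) and in 7.26% of all windows. The AP-1 motif TGACTCA, on either strand, stood in 2 windows, both of HK1, and in 4.95% of all windows. For the 3 enzymes lowest in replicate 1 (LDHA, PGK1 and HK2) and the 3 with the largest positive differences given above (PKM, ALDOA and GAPDH), the window with the most ACGTG is printed 5′ to 3′ on the gene's strand, with ACGTG or its reverse complement in capitals. The windows are chr11:18394313-18394612 for LDHA, chrX:78103998-78104297 for PGK1, chr2:74834920-74835219 for HK2, chr15:72231141-72231440 for PKM on the minus strand, chr16:30064247-30064546 for ALDOA, and chr12:6535014-6535313 for GAPDH.
LDHA: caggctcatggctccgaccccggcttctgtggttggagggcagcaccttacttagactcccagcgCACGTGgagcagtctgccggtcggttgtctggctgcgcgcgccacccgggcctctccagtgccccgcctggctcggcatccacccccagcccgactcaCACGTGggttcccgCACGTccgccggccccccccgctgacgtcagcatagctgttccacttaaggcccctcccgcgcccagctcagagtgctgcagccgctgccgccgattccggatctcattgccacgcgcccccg
PGK1: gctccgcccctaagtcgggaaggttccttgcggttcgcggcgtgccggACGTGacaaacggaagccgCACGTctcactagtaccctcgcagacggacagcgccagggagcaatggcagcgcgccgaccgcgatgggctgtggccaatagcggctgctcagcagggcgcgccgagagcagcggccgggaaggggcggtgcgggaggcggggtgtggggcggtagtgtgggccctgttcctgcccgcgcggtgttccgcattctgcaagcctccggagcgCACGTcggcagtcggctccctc
HK2: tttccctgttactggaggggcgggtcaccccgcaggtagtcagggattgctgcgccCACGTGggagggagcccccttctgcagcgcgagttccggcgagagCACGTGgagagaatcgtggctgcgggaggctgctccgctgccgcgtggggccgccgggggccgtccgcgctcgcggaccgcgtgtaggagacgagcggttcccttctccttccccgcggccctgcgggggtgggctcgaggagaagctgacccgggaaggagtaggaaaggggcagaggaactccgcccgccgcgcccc
PKM: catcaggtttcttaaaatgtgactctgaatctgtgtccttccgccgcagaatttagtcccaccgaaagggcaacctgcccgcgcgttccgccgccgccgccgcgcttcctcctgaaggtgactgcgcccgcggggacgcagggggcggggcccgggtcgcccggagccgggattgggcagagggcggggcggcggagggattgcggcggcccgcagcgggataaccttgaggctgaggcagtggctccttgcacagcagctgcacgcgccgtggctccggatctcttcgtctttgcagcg
ALDOA: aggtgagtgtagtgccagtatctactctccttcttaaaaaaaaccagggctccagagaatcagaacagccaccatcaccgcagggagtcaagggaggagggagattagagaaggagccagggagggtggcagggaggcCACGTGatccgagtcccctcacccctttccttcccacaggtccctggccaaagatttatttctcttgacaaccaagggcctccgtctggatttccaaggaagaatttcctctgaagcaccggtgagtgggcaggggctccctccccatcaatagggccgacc
GAPDH: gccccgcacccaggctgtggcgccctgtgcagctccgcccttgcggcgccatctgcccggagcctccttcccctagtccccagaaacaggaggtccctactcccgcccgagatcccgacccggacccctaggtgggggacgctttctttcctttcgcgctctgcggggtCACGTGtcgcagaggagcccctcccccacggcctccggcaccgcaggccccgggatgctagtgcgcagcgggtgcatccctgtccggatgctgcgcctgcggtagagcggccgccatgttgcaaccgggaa
Counted on each strand, the motif stood 5 times in LDHA, 3 times in PGK1, 4 times in HK2, 0 times in PKM, 2 times in ALDOA and 2 times in GAPDH, where each CACGTG counts 2. Of all windows, 8.82% had a count of 2 or more, whereas those printed were chosen for the most matches within each gene. ALDOA had the motif in 3 of 3 windows, TPI1 in 1 of 2 and HK1 in 0 of 7, so enzymes high in replicate 1 differed among themselves. A match describes the letters of the window and not a bound site.

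A search over the 7169 genes with at least 200 reads named the profiles nearest to the median of the 10 enzymes across the 7 libraries. These were CDIPT, SAMM50 and DIABLO, with root mean square differences of 0.0252, 0.0354 and 0.0413 log2 units, against a median of 0.279 over the genes. They were picked as the smallest values, which lie below the median by construction, so a link of these genes to the enzymes was not tested. The enzymes do not share this median profile, to which TPI1 (0.104), HK1 (0.133), PFKP (0.137), ENO1 (0.172) and ALDOA (0.255) were closest. GAPDH (0.280) stood at the median of the genes, while PKM (0.372), PGK1 (0.420), LDHA (0.423) and HK2 (0.521) lay farther from the profile. Each enzyme entered the profile and is drawn toward it by construction, so nearness to it is no result about the enzymes.

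The last comparison set the 1 IAA library beside the 3 DMSO libraries, to ask how the enzyme mRNAs stood after JUN degradation had been triggered. The comparison shares its DMSO libraries with the labelling comparison. With 1 library there is no test, and each difference is read against the range of the DMSO libraries after centring every library on its median rate. In conversion rate, 0 of 10 enzymes lay above the DMSO range and 5 lay below it, against 22.9% and 26.5% of 11378 genes. This split rests on the centring: without it 1 enzyme lay above (ALDOA) and 4 below (TPI1, PFKP, ENO1 and PKM), against 28.7% and 17.1% of genes. The median difference over the enzymes was -0.19 with centring and -0.04 without it. The centred value lay within the values that the DMSO libraries gave against each other (-0.24, 0.18 and 0.01 for replicates 1, 2 and 3).

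**Figure D5:**
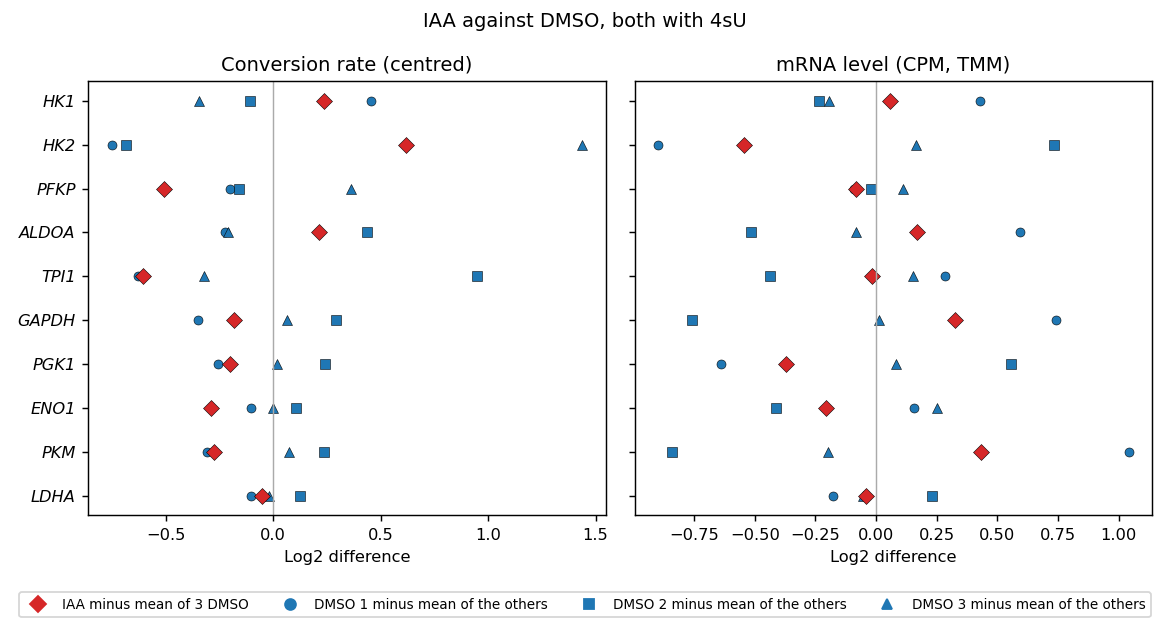
Log2 difference of the IAA library from the mean of the 3 DMSO libraries (red), and of each DMSO library from the mean of the other DMSO libraries (blue, symbols give the replicate), for the centred T>C conversion rate on the left and the TMM-scaled CPM on the right. In total mRNA the red points fall on the side of DMSO replicate 1 for most enzymes.

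The 5 enzymes below the range were TPI1 (-0.61), PFKP (-0.51), ENO1 (-0.29), PKM (-0.27) and PGK1 (-0.20), and each stayed within 1 log2 unit of the DMSO mean, whereas 10.2% of genes lay above the range by at least that much and 11.2% below it. As deposited, the rate with IAA was 0.105% for TPI1, 0.108% for PFKP, 0.111% for ENO1, 0.196% for PKM and 0.102% for PGK1. The differences for HK2 (0.62), HK1 (0.24), ALDOA (0.21), LDHA (-0.05) and GAPDH (-0.18) lay within the range, with deposited rates of 0.241, 0.365, 0.293, 0.176 and 0.192%. Without centring every difference was higher by 0.15, so that LDHA changed sign to 0.10, and ENO1, PKM, PGK1 and GAPDH stood at -0.14, -0.12, -0.05 and -0.03.

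In total mRNA, PFKP was the 1 enzyme outside the DMSO range, at -0.08 and below it, where 20.7% of 11056 genes were below and 20.7% above, and no enzyme was outside without TMM scaling. The median difference was -0.03. The largest differences were -0.54 for HK2, 0.43 for PKM, -0.37 for PGK1 and 0.33 for GAPDH, all within the range of the DMSO libraries and under the 1 log2 unit that 0.145% of genes exceeded upwards and 0.0633% downwards. In CPM, the IAA library had 92.0 for HK1, 11.8 for HK2, 104 for PFKP, 287 for ALDOA, 154 for TPI1, 1296 for GAPDH, 514 for PGK1, 912 for ENO1, 989 for PKM and 2452 for LDHA.

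The IAA library resembled DMSO replicate 1 most. Over the 10 enzymes, its root mean square log2 difference was 0.188 to DMSO replicate 1, 0.610 to replicate 2 and 0.360 to replicate 3, and over all genes 0.251, 0.426 and 0.344. Its largest difference from replicate 1 was 0.31, for ENO1. Without DMSO replicate 1, 8 of 10 enzymes lay outside the range of the other DMSO libraries in conversion rate and 8 of 10 in total mRNA. With fewer libraries the range is narrower by construction for every gene, and the share of all genes outside it is not given here. These counts are therefore not read as a result about the enzymes. Whether the IAA library was prepared with the libraries numbered 1 cannot be read from identical columns, so its difference from the DMSO group and the difference between replicate numbers cannot be told apart for these genes.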

How the data were processed

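QuantSeq 3′ libraries of alkylated RNA were sequenced as 75-base single-end reads, and the authors processed them with the Nextflow SLAM-Seq pipeline (versions not given in the sources used here) on hg19, the build named in the submitters' processing notes. The deposited table gives per RefSeq 3′ interval the T>C conversion rate as a fraction (printed as percent), without background subtraction, and a signal called CPM. The CPM values were whole multiples of 1 read for 100% of non-zero values (tolerance 0.001 read), so reads were recovered. The number of T positions behind a rate is unknown, so that rates carry no interval. Identifiers were matched to genes for 97.7% of rows. Equal intervals were counted once, reads summed and rates averaged per gene, and 0 columns of sample values were left unused.

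The 3 DMSO 4sU and 3 no 4sU libraries were compared with limma 3.58.1 (R 4.3.3, trended, robust variances) on log2(rate + 0.0005), for genes above 0 in at least 3 libraries, and on log2(CPM + 1) after TMM scaling (edgeR 4.0.16), for a mean of at least 1 CPM. Adjusted p values are Benjamini-Hochberg over all genes tested, with a threshold of 0.05. An exact permutation test of 3 against 3 cannot give less than 0.10 (two-sided), so none was run. edgeR's quasi-likelihood test and DESeq2 1.42.0 on the recovered reads, other pseudocounts, filters, intervals, a replicate block and omitted replicates were alternatives. The methods were tested on simulated data. Replicate numbers come from the sample titles. Same-numbered libraries deviated together in total mRNA (r above 0.1 for each number) and not in conversion rate. The main tests did not pair the libraries, and the replicate block, which pairs them by number, was given beside them as an alternative.

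All 10 enzymes are named. Of the other pathway lists, values are given for genes that passed a test, and otherwise for the extremes. LDHB and GPI fall outside this rule and were named after their values were seen. Marker lists and the levels of JUN were given once. The enzymes and lists were chosen with earlier results of these data known.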

Additional observations from a re-analysis of the deposited data

How the results depend on the processing

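Of 380 values of single enzymes under the alternatives, 351 kept their direction and side of the threshold or moved by less than the spread of the replicates. For conversion rates with 4sU, leaving out 1 replicate number gave 2156 to 2705 genes called and 0 enzymes, and the replicate block 4096 genes in place of 5158 with 4 enzymes in place of 6, ENO1 having a limma adjusted p of 0.0696 and LDHA of 0.0609. Fewer samples then carry the test without a replicate. In total mRNA, where 178 genes were called, the replicate block gave 185 and 0 enzymes, DESeq2 gave 385 and 0 enzymes, and leaving out 1 replicate number gave 24 (without replicate 2) to 454 (without replicate 1) genes without the block and 64, 102 or 943 with it (without replicates 2, 3 and 1), the latter an alternative chosen after the data were seen. The block changed no other call of an enzyme. For IAA against DMSO, the rate gave 1444 genes beyond 1 log2 unit with a pseudocount of 0.002 in place of 2435, as a larger pseudocount shrinks low rates. The number of enzymes outside the DMSO range was 6 to 8 with 1 DMSO replicate left out. In total mRNA, the count was 69 with a pseudocount of 0.25 and 7 with 4, in place of 23, and 16 to 108 with 1 DMSO replicate left out, with 1 to 8 enzymes outside the range (8 without replicate 1, 3 without replicate 2) and 0 without TMM scaling. A range of fewer libraries is narrower by construction for every gene, and the share of all genes outside it is not given here. The median percentile of the enzymes was 45.6 with at least 1000 reads and 35.5 to 45.6 with 1 replicate number left out, both alternatives chosen after the data were seen. With 228 to 575 reads per library, HK2 is the enzyme that depth limits most.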
